A study of Mus musculus with 32 samples.

Results

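The genes described here encode the nuclear subunits of the mitochondrial respiratory chain and of ATP synthase, measured in the whole blood of irradiated and control mice. They were chosen by name alone: every non-control probe on the array whose gene name starts as the subunits of complexes I to V do (Nduf with a subunit letter and number, Sdha to Sdhd, Uqcr, Cox4 to Cox8, and Atp5). That rule found 124 probes of 85 genes, among 39429 probes of 30199 gene names in all. Of these, 118 probes of 80 genes were measured well enough to be tested, and 93 were well above background on all 32 arrays. The name is not the same as the complex in every case. Atp5c1-ps is a pseudogene, Atp5s and Atp5sl are older names of Dmac2l and Dmac2, Cox7a2l is a factor that joins complexes into supercomplexes, and Ndufa4 is now counted with complex IV. Counts by complex below follow the name all the same. They place Cox7a2l in complex IV, Ndufa4 in complex I, and Atp5c1-ps, Atp5s and Atp5sl in complex V. Cytochrome c, Cyc1, Ndufab1 and the subunits encoded by mitochondrial DNA lie outside the rule.

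The mice were C57BL/6 males of 3 genotypes: wild type (WT), ATM-/- (Atm), which lack the kinase that signals DNA double-strand breaks, and Scid, whose defect lies in the joining of broken DNA ends. Each genotype was given its own LD50/30 dose of X-rays (a dose defined by the share of animals it kills) or a mock exposure, and blood was taken by cardiac puncture 24 h later, 1 array per mouse. There were 6 unexposed WT mice and 5 given 8 Gy, 5 unexposed Atm mice and 6 given 4 Gy, and 5 unexposed Scid mice with 5 given 3 Gy, so dose and genotype cannot be told apart when responses are compared. The labels give no age, and globin transcripts were depleted in all groups.

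The respiratory chain passes electrons from NADH (complex I) and succinate (complex II, which is also an enzyme of the tricarboxylic acid cycle) through complex III and cytochrome c to oxygen at complex IV, and complex V uses the resulting proton gradient to make ATP. Each complex except II joins subunits encoded by mitochondrial DNA to nuclear-encoded ones, of which some are catalytic and many are small accessory proteins. In blood, white cells, platelets and reticulocytes hold mitochondria and their transcripts, and reticulocytes lose both as they mature into red cells.

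Levels below are log2 signal, set so that the 75th percentile of an array is 0, and they are compared between groups for 1 probe, never between probes. A change is a log2 difference with its standard error (SE) from limma, and a probe was called when its p-value, adjusted by Benjamini-Hochberg over all 18373 tested probes, was under 0.05. The arrays of irradiated WT mice were the brightest, whose 75th percentile lay at signals of 128 to 240, against 23.9 to 210 in WT controls and 16.7 to 115 in the other 4 groups. Between 20.1 and 58.6% of probes were well above background per array. The arrays lay on 9 slides, and on 4 of them (replicate 5 of WT at 0 Gy, replicates 1 and 2 of WT at 8 Gy, and replicate 3 of Atm at 4 Gy) a score of liver markers reached 5.70 to 6.36, against -2.33 to 3.39 on the other 28. Medians and counts of calls of respiratory chain probes in WT are also given without them. The defining markers of red cells and of white cells were measured, at 25 of 26 listed erythroid genes and 6 of 6 white cell genes.

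In WT mice at 8 Gy, transcripts of 5 of the 15 tested genes named for cytochrome c oxidase (complex IV) were lower than in controls. So were those of 4 of the 17 named for ATP synthase (complex V). None of the tested respiratory chain probes was called higher. Of 118 probes, 22 (18.6%) were called lower, from 12 genes: Cox7b, Cox6c, Cox6a1, Cox7a2 and Cox7c of complex IV, Atp5b, Atp5l, Atp5h and Atp5k of complex V, Uqcrh of complex III, and Ndufa3 and Ndufb11 of complex I. Over all tested probes 6.25% were called lower and 1.13% higher. That background includes many probes at or near background signal on some arrays. When each array had to show a probe well above background, 27 of 93 respiratory chain probes were called lower. Of all probes so limited 18.4% were, and the median change was -0.33 in the respiratory chain beside -0.40. In the main setting the falls of the 22 called probes ran from -0.98 to -1.80. Direction depended on the background correction, run with an added offset of 50 in signal, and on the scale. With normexp background correction and this offset none of the 22 calls remained and 11 of the 22 probes lay below 0. With scaling to spike-in controls 15 did. All 22 lay below the median of the respiratory chain probes under both, but they were chosen for their falls on these same arrays. The part of the offset was not tested. In bulk blood, fewer cells of a type and less RNA per cell cannot be told apart.

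The promoters of 4 of the called genes are shown because these genes fell together, as 150 bases from 120 before to 30 after the start of the transcript (RefSeq, GRCm38.p6, 5′ to 3′ on the gene's strand). Capitals mark a match on either strand to a core of nuclear respiratory factor 1 (GCGCANGC) or of the ETS family with GABPA (CCGGAAG).

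Cox7b, chrX:106015580-106015729, plus strand: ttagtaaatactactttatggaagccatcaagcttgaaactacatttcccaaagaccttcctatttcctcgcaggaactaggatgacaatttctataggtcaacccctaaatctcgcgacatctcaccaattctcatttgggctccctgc
Atp5b, chr10:128083187-128083336, plus strand: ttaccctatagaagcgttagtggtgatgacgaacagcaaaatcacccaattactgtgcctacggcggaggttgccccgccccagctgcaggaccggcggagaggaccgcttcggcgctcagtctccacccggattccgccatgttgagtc
Cox6a1, chr5:115348929-115349078, minus strand: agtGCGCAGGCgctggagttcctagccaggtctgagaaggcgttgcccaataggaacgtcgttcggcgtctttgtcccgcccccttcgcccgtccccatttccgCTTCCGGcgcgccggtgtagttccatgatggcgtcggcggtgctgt
Atp5h, chr11:115419890-115420039, minus strand: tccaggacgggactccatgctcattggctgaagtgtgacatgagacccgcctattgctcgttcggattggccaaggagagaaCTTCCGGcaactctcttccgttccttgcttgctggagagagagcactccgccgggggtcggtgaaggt

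The windows of Cox7b and Atp5b hold neither core, and that of Cox6a1 holds both. RefSeq promoters of 300 bases were given for 69 of the 85 genes and for 11 of the 12 called ones. The NRF1 core was found in 34.8% of the 69, against 11.2% of all 27025 promoters, and the ETS core in 23.2% against 9.93%. The YY1 core (AAGATGGC) stood in 15.9% against 3.19%, and the ESRRA core (TCAAGGTCA) in 2.9% against 0.466%. Among the 11 called genes with a promoter, 36.4% held the NRF1 core and 45.5% the ETS core, and among the 55 tested and not called 34.5% and 20% did. All searches covered both strands, and a match describes letters only.

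Complex IV held the largest falls. Cox7b, a small subunit of cytochrome c oxidase (probe at mm9 chrX:103217154-103217213), stood at 6.16 (lowest), 6.63 (median) and 7.23 (highest) in the 6 WT controls. The 5 WT mice at 8 Gy were at 5.25, 5.40, 4.55, 4.40 and 4.83, so that each irradiated mouse lay below every control. Its change was -1.80 (SE 0.31, adjusted p = 0.000153).

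Cox6c, another structural subunit (chr15:35861751-35861810), ran from 6.45 to 8.02 with a median of 7.59 in WT controls. At 8 Gy the values were 5.66, 5.35, 5.46, 5.67 and 6.36. The groups did not overlap, although the highest irradiated mouse was just below the lowest control (-1.78, SE 0.33, adjusted p = 0.000354).

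Cox6a1 encodes the form of subunit VIa found in most tissues (chr5:115795726-115795785). Its levels were 8.84 to 10.31 (median 9.61) in WT controls and 8.30, 8.14, 8.04, 7.91 and 8.24 at 8 Gy. The irradiated mice lay close together and below all controls (-1.50, SE 0.35, adjusted p = 0.00429). Cox7a2, the common form of subunit VIIa, went from 5.08 to 6.07 (median 5.38) in controls to 4.73, 4.54, 3.99, 3.76 and 4.32, again without overlap (-1.19, SE 0.31, adjusted p = 0.0131). This call had adjusted p = 0.0536 without WT 8 Gy replicate 4.

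Cox7c, a further small subunit, was read by 3 probes that differed in size. The called probe (chr13:86184403-86184462) was dim, at -0.92 ± 0.79 (SD, n = 6) in controls and -2.44 ± 0.42 (SD, n = 5) at 8 Gy, a change of -1.52 (SE 0.36, adjusted p = 0.00489). The other probes gave -0.77 (adjusted p = 0.127) and -0.63 (adjusted p = 0.281) and were not called. Cox8a, the common form of subunit VIII, gave -0.95 (adjusted p = 0.0871) and -0.89 (adjusted p = 0.0776), and both probes were called without WT 0 Gy replicate 5 (adjusted p = 0.0321 and 0.024).

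Other subunits of complex IV were not called. Cox4i1, the common form of subunit IV, which is among the first nuclear subunits to join the assembling complex, was at 6.42 to 7.11 (median 6.77) in WT controls and at 6.84, 6.93, 6.07, 6.13 and 6.13 at 8 Gy. The irradiated values fell on both sides of the control median (-0.32, SE 0.26, adjusted p = 0.526). Those above it, 6.84 and 6.93, came from replicates 1 and 2, whose arrays were bright in liver markers. The others, at 6.07, 6.13 and 6.13, lay below the lowest control. Cox5a, which binds near it, changed by -0.09 (SE 0.35, adjusted p = 0.9), Cox5b by -0.07 and Cox6b1, on the side facing cytochrome c, by -0.16. Cox7a2l was within its spread on all 3 probes (0.05 to 0.24). On one of them, WT controls ran from 5.60 to 6.20 over 5 mice, 1 spot having been left out, and irradiated mice were at 6.04, 5.64, 6.05, 6.21 and 6.12. Over the 20 tested probes of complex IV the median change was -0.82, beside 0.00 over all tested probes.

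**Figure D1:**
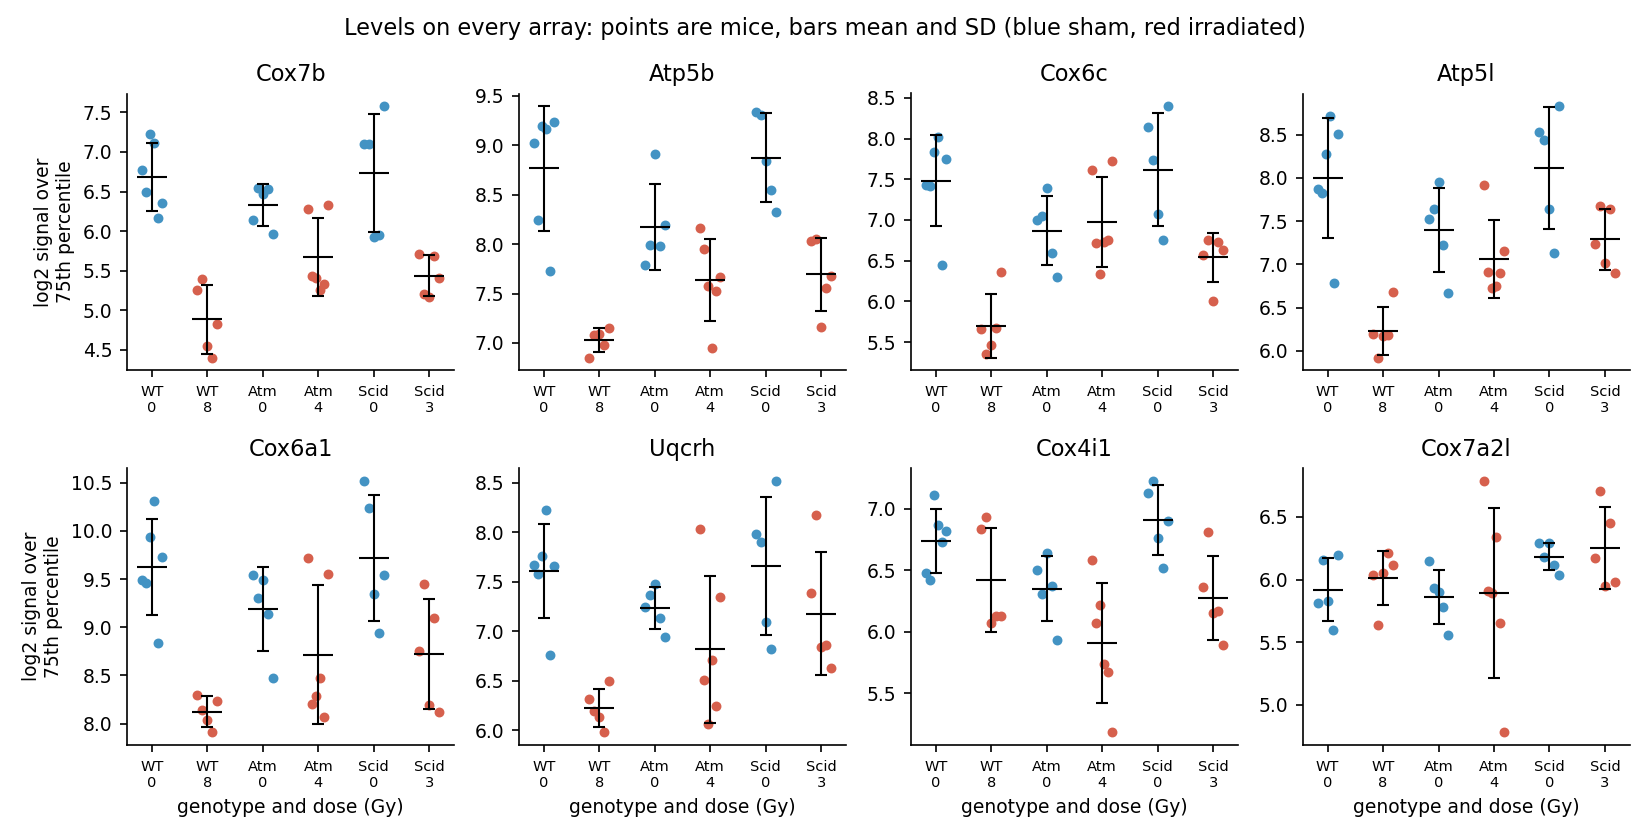
Log2 signal over the array's 75th percentile (vertical axis) of 8 respiratory chain probes in each of the 6 genotype and dose groups (horizontal axis, dose in Gy). Points are mice, blue for controls and red for irradiated, and bars give the mean and SD. For Cox7b, Atp5b, Cox6c, Atp5l, Cox6a1 and Uqcrh the irradiated WT mice lie below all WT controls, while for Cox4i1 and Cox7a2l they overlap.

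Complex V had the most called probes, 12 of 30, from 4 of its 17 tested genes. Atp5b encodes the catalytic beta subunit of the F1 head (chr10:127527255-127527314). Its signal was 7.73 to 9.24 (median 9.09) in WT controls and 6.85, 7.08, 7.09, 6.98 and 7.15 at 8 Gy. All irradiated mice lay close together and below the lowest control. The change was -1.74 (SE 0.30, adjusted p = 0.000147). Atp5a1, which encodes the alpha subunit that alternates with beta in the head, was -0.76 (SE 0.40, adjusted p = 0.285). Atp5c1, of the central gamma stalk, gave 0.01 and 0.09 on its 2 probes, and Atp5d (delta) gave 0.42. Atp5e (epsilon) was -0.85 (SE 0.28, adjusted p = 0.0545) and missed the threshold.

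Of the membrane part and its side stalk, Atp5l (subunit g), Atp5k (subunit e) and Atp5h (subunit d) were called on each of their tested probes. The 6 probes of Atp5l gave -1.44 to -1.77. The largest of these changes came from a probe placed at chrX:35750466-35750525, whereas the other 5 lie on chromosome 9. It stood at 6.78 to 8.72 (median 8.08) in WT controls and 6.19, 5.92, 6.17, 6.18 and 6.68 at 8 Gy, without overlap (SE 0.34, adjusted p = 0.000491). Atp5h (chr11:115277011-115277070) was at 7.11 to 8.56 (median 8.05) against 6.48, 6.26, 6.09, 6.43 and 6.90, also apart. Its probes changed by -1.48 (SE 0.35, adjusted p = 0.00562) and -1.40 (SE 0.33, adjusted p = 0.00566).

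Atp5k fell less, by -1.16, -1.09 and -1.07 (adjusted p = 0.00712, 0.031 and 0.0248). In controls the probe of the lowest p was at 5.46 to 6.28 (median 5.90), and the irradiated mice were at 5.30, 5.45, 4.22, 4.21 and 4.49. The 2 highest of these were just below the lowest control and are the WT 8 Gy arrays on which liver markers were bright. The other 2 probes lost their calls on leaving out replicate 3 or 4 of the controls, or 3, 4 or 5 of the irradiated mice (adjusted p = 0.0665 to 0.105). The c-ring gene Atp5g2 was not called, at 0.10 on both probes (adjusted p = 0.884 and 0.841). The median over the 30 probes of complex V was -0.63.

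Several of these probes share sequence. Of the 6 probes of Atp5l, 5 overlap with others of them by 34 to 59 bases with 2 to 4 differences, so their values are not independent, and the array cannot assign signal among the gene and close copies of it. The other Atp5l probe had no such overlap of 30 bases or more. The probes of Uqcrh and of Uqcr11 make this visible. Within each pair, 30 bases of the shared part are shown, with the base that differs in capitals.

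Uqcrh, probe at mm9 chr4:115739571-115739630: ctcttctgtgtGactagcagtgacttcatc
Uqcrh, probe at mm9 chr2:118834335-118834394: ctcttctgtgtAactagcagtgacttcatc
Uqcr11, probe at mm9 chr10:79865745-79865804: tagggctgccttgatGggtgcagcattaaa
Uqcr11, probe at mm9 chr1:168361642-168361701: tagggctgccttgatAggtgcagcattaaa

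Each pair overlaps by 53 or 52 bases with 1 difference and is placed on different chromosomes. Both Uqcrh probes were called, at -1.38 (SE 0.35, adjusted p = 0.00898) and -1.30 (SE 0.36, adjusted p = 0.0193). The second call was lost without WT 0 Gy replicate 4 (adjusted p = 0.0674) and without WT 8 Gy replicate 4 (adjusted p = 0.0514). Both Uqcr11 probes were not called, at -0.61 and -0.66 (adjusted p = 0.251 and 0.193).

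Uqcrh is the acidic hinge protein of complex III, beside the site where cytochrome c docks. On the chromosome 4 probe, WT controls ran from 6.76 to 8.22 (median 7.66) and the mice at 8 Gy stood at 6.32, 6.20, 6.13, 5.98 and 6.50, all below the controls. The other genes of complex III were not called. Uqcrc1 and Uqcrc2, the large core proteins, gave 0.24 and -0.40, and Uqcrfs1, the Rieske iron-sulphur protein, 0.38 (SE 0.56, adjusted p = 0.73). The largest rise in the complex was 0.43 (SE 0.61) for a probe of Uqcrb. The 15 probes had a median of -0.40.

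In complex I 3 of 47 probes were called, of the accessory genes Ndufb11 and Ndufa3, a share of 6.38% beside 6.25% of all probes. Ndufb11 changed by -0.99 and -0.98 (adjusted p = 0.0294 and 0.0325) on probes that share 55 bases, and by -0.55 (adjusted p = 0.366) on another, dim probe. WT controls were at 5.67 to 6.52 (median 5.93) and irradiated mice at 5.47, 5.39, 4.67, 4.70 and 4.88, below all controls. Both calls were lost on leaving out replicate 1 or 4 of the controls, or 3, 4 or 5 of the irradiated mice (adjusted p = 0.0607 to 0.0945).

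Ndufa3 was called on 1 probe at -1.10 (SE 0.34, adjusted p = 0.0419), with overlap between controls (7.09 to 8.82, median 8.35) and irradiated mice (6.73, 6.76, 7.40, 7.15 and 7.38). Its other, dim probe gave 0.00 (SE 0.59, adjusted p = 1). The call was lost on leaving out any of 7 arrays: replicate 1, 3, 4 or 6 of the controls, or 1, 2 or 4 of the irradiated mice (adjusted p = 0.0636 to 0.12). Ndufb9 (-0.93, adjusted p = 0.0749) and Ndufa1 (-0.89, adjusted p = 0.099), both accessory, were not called. The core subunits that carry the redox centres gave no calls. Among them Ndufv1, which binds NADH, stood at 0.65, Ndufs7 at 0.64 and Ndufs1 at -0.61. The median of complex I was -0.03.

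**Figure D2:**
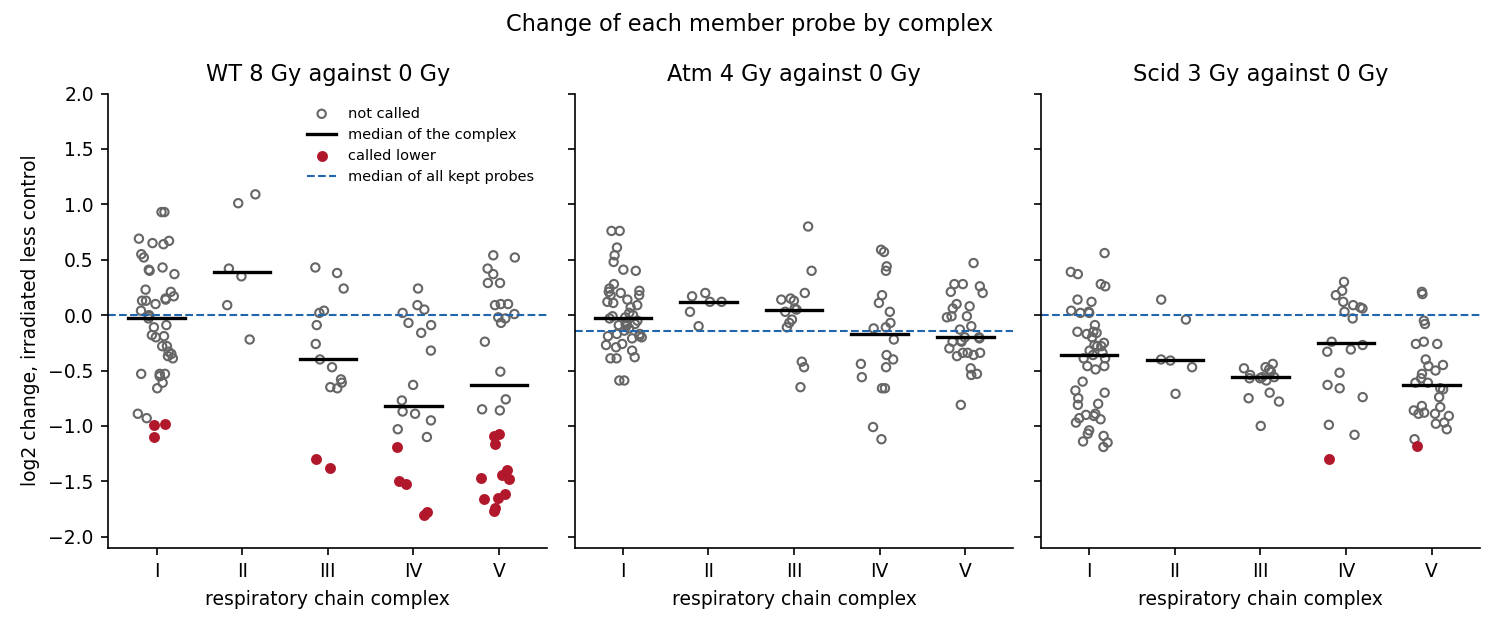
Log2 change of each tested respiratory chain probe (points, vertical axis) by complex (horizontal axis) in the 3 irradiation comparisons. Filled red points were called lower at adjusted p under 0.05, the black line is the median of the complex and the dashed line the median of all tested probes. The 22 called WT points lie in complexes I, III, IV and V, Scid has 2 and Atm none.

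Complex II had no called probe and the highest median in WT, at 0.38 over 6 probes. Sdhc, a membrane anchor of succinate dehydrogenase, was 1.09 and 1.01 higher (SE 0.68 and 0.63, adjusted p = 0.379 and 0.373). Sdhd, the other anchor, was 0.42 higher, the iron-sulphur subunit Sdhb 0.09 and 0.35, and the flavoprotein Sdha stood at -0.22. The values of complex II followed the arrays with bright liver markers. On Sdhb, WT controls ran from 3.38 to 5.83 (median 4.04), with WT 0 Gy replicate 5 the highest, and mice at 8 Gy were at 5.49, 5.62, 3.48, 3.67 and 3.47, with replicates 1 and 2 far above the other 3. In Atm at 4 Gy, replicate 3 was again the highest, at 5.54, with a median of 3.74.

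A score over the 6 probes of complex II (their mean level on an array, less its mean over arrays) was 1.60 to 1.94 on the 4 arrays and -1.92 to 0.85 on the other 28. Complex I scored 0.70 to 1.05 on these 4, against -0.64 to 0.72, and complex III 0.61 to 1.1, against -0.69 to 0.75. Complex IV scored -0.55 to 0.04, inside the range of the others (-0.65 to 0.99), and complex V 0.13 to 0.50, also inside (-0.61 to 0.72). Without the 4 arrays the WT median of complex II was -0.05, that of complex I -0.39, of III -0.91, of IV -0.97 and of V -0.81, and over all respiratory chain probes -0.54 instead of -0.20. Then 25 probes were called lower, beside 4.77% of all probes. Of the 20 listed liver genes, 14 were measured. The part of the liver transcripts in the differences between complexes was not tested.

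Bright probes fell more than dim ones across the whole array, and 19 of the 22 called probes are bright. Among all tested probes with a mean level of at least 5, 21.4% were called lower in WT (median -0.73), against 9.61% from 2 to 5 (median -0.10) and 3.74% below 2 (median 0.09). In the respiratory chain, 19 of 37 probes of the bright range were called (51.4%, median -0.99). In the range from 2 to 5, 2 of 48 were called (4.17%, median -0.05), and below 2, 1 of 33 (3.03%, median 0.29). The share of respiratory chain probes called was above that of all probes in the bright range and below it in both others. These shares count several probes of 1 gene separately, among them 6 of Atp5l in the bright range, so they are not shares of genes. Over all levels, 12 of 80 respiratory chain genes had at least 1 probe called lower, beside 1003 of 15173 genes in all.

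Red cell transcripts moved with these falls. In WT, 27 of 33 erythroid and reticulocyte probes were called lower (21 of 25 genes, median -3.04), among them Slc4a1, the anion exchanger of the red cell membrane, at -4.88. The probe for Ank1, the ankyrin that anchors it, was called lower too but was not well above background on any 8 Gy array, so no size is given for it. The erythroid score was -0.41 to 1.56 in WT controls and -2.74 to -1.34 at 8 Gy. Among genes that remove mitochondria from maturing reticulocytes, 3 of 10 were called lower: Bnip3l, the mitophagy receptor of that step, by -3.32 (SE 0.42, adjusted p = 2.14e-06), Gabarapl2, of the autophagosome, by -2.53 (SE 0.43, adjusted p = 0.000128), and Pink1, a kinase of damaged mitochondria, by -1.63 (SE 0.36, adjusted p = 0.00334). The part of red cell transcripts in the respiratory chain result was not tested.

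Other mitochondrial lists had few calls or none in WT. The lists here and in the next paragraph were read on all arrays and were not matched in level to the respiratory chain. Their values without the liver-bright arrays are not given here, so no contrast with the respiratory chain is read from them. Genes of the chain or beside it that lie outside the name rule (cytochrome c, Cyc1, the coenzyme Q enzymes and the like) gave no call among 15 probes. Their median was 0.54, with 3 at an unadjusted p under 0.05. Nor was any called of 30 probes of assembly factors (median 0.42, also 3) or 18 of biogenesis regulators (median 0.38, 2). The 13 genes of mitochondrial DNA gave no call and a median of 0.06, with 1 at an unadjusted p under 0.05. Of 22 tricarboxylic acid cycle probes 1 was called, of Ogdh, a part of the 2-oxoglutarate dehydrogenase (-1.02, SE 0.31, adjusted p = 0.0399), with a median of 0.32. Among 45 import and membrane probes both called ones were of Timm17b, a channel subunit of the inner membrane translocase (-1.77, SE 0.32, adjusted p = 0.000299), and the list's median was 0.32.

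Glycolysis, the pathway that makes ATP without mitochondria, had no call among 30 probes (median 0.36, 8 at an unadjusted p under 0.05). Cytosolic ribosomal protein genes, which like the respiratory chain are small, abundant transcripts, had 6 of 66 probes called lower from 4 of 33 genes (median -0.55), among them Rps14 (-1.35), Rpl28 (-1.23) and Rplp2 (-1.22). Markers of dividing cells had 9 of 15 probes called lower (median -1.66) and B cell markers 7 of 17 (median -1.24). Monocyte markers had 3 called higher and 1 lower of 22. Among the rest, T cell markers had 1 of 18 lower, neutrophil markers 2 higher and 2 lower of 15, and NK cell (12 probes), platelet (20) and general white cell (8) markers had no call, with 1, 1 and 3 at an unadjusted p under 0.05.

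In Scid mice at 3 Gy, Cox7b and Atp5b were the called respiratory chain probes, both lower. Over all tested probes 1.28% were called lower and 0.0816% higher, and 2 of 118 is close to that background. Cox7b stood at 7.10, 7.10, 5.93, 5.95 and 7.58 in Scid controls and at 5.71, 5.20, 5.17, 5.69 and 5.41 at 3 Gy. All irradiated mice were below the lowest control, by little in the case of the highest (-1.30, SE 0.32, adjusted p = 0.0347). Atp5b stood at 9.34, 9.31, 8.84, 8.55 and 8.33 against 8.03, 8.05, 7.16, 7.56 and 7.68, likewise apart (-1.18, SE 0.31, adjusted p = 0.0491).

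Both Scid calls rested on single arrays. Leaving out 1 Scid array at a time gave an adjusted p of 0.0228 to 0.13 for Cox7b and of 0.0167 to 0.185 for Atp5b. No respiratory chain probe was called without Scid 0 Gy replicate 1 or 2 or without Scid 3 Gy replicate 3, 4 or 5, and 1 was called without Scid 3 Gy replicate 1 or 2 or Scid 0 Gy replicate 3. Within scan day 1 (2 irradiated and 4 control arrays) Cox7b differed by -1.07 and Atp5b by -0.97, and within scan day 2 (2 and 1 arrays) by -2.15 and -0.97.

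The Scid estimates leaned low across all complexes. Of 118 probes 96 were below 0, with a median of -0.48 beside 0.00 over all probes, and 26 had an unadjusted p under 0.05 (22%, beside 10.1% of all probes). Medians were -0.36 in complex I, -0.40 in II, -0.56 in III, -0.26 in IV and -0.64 in V. All 15 probes of complex III and 28 of 30 of complex V lay below 0. Besides the called pair, the lowest estimates of each complex were Ndufs1, the largest core subunit of complex I (-1.19, SE 0.45, adjusted p = 0.258), Sdhd (-0.71), and Uqcrc2 (-1.0, adjusted p = 0.335). Cox6c was -1.08 (adjusted p = 0.129), Cox6a1 -0.99 (adjusted p = 0.228) and Atp5k -1.12 on its lowest probe (adjusted p = 0.0736).

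In Scid 10 of the 118 probes had no overlap between the groups, all lower, against 2.37% of all probes. In WT 18 did, all called lower, against 3.92%. Erythroid probes were called lower in Scid at 12 of 33 (median -1.70), and the erythroid score was -0.03 to 1.72 in controls and -1.17 to 0.11 at 3 Gy. Of the other mitochondrial groups and glycolysis none had a call in Scid. Of the ribosomal proteins 1 of 66 was called, Rpl11 (-1.33, SE 0.34, adjusted p = 0.04).

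In Atm mice at 4 Gy no respiratory chain probe was called in either direction, and limma gave 2 an unadjusted p under 0.05 (1.69%, beside 12.4% of all probes). Few probes were called at all: 0.109% higher and 0.212% lower. The median over the 118 probes was -0.05, beside -0.14 over all probes. Cox7b was at 6.14, 6.54, 6.47, 6.53 and 5.97 in Atm controls and at 5.26 to 6.33 (median 5.42) in the 6 mice at 4 Gy. Here 4 of the 6 lay below every control and 2 within their range (-0.66, SE 0.31, adjusted p = 0.376). Atp5b was -0.53 (SE 0.30, adjusted p = 0.497).

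Cox6c was at 7.0, 7.05, 7.39, 6.59 and 6.30 in Atm controls and at 6.34 to 7.72 (median 6.75) at 4 Gy (0.11, SE 0.33, adjusted p = 0.944). The groups overlapped, although replicates 1 and 6 at 4 Gy, at 7.61 and 7.72, lay above every control. The lowest estimate was -1.12 (SE 0.60, adjusted p = 0.454), for Cox6b2, a form best known from testis, and the highest 0.80 (SE 0.47, adjusted p = 0.52), for a probe of Uqcrq, a small subunit of complex III. In that probe 1 Atm control stood apart, with values of 0.53, 3.03, 3.48, 3.48 and 3.54. In complex I the extremes were Ndufa5 (0.76) and Ndufa3 (-0.59, on its dim probe). Erythroid probes had 1 call of 33 in Atm, with a median of -1.04, and scores of 0.57 to 0.92 in controls and -1.09 to 0.45 at 4 Gy.

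The 22 probes called in WT had a median change of -1.46 in WT, -0.84 in Scid and -0.34 in Atm, and 21 of them were below 0 in Scid and 19 in Atm. Within batches the Atm direction was the opposite: their mean differed by 0.39 on scan day 1 (1 irradiated and 4 control arrays), 0.50 on scan day 3, 0.55 on slide 1 and 0.50 on slide 8 (1 array of each group). These values rest on replicates 1 and 6 of the 4 Gy mice. In Scid the mean differed by -0.47 and -1.33 within scan days 1 and 2, and by -1.04 and -0.01 on slides 2 and 3. The test of the difference between responses called none of the 118 probes, nor any probe in all. Of 118 probes, 15 had an unadjusted p under 0.05 for Atm less WT (12.7%, beside 8.59% of all probes), 2 for Scid less WT (1.69% beside 7.38%) and 4 for Scid less Atm (3.39% beside 4.54%). The lowest adjusted p was 0.286, 0.66 and 1. The largest differences of Atm from WT were 2.09 (SE 0.50) for the dim probe of Cox7c and 1.90 (SE 0.47) for Cox6c, both with an adjusted p of 0.286. Without WT 0 Gy replicate 5, an array bright in liver markers, 2 of the 118 probes were called for that difference. The share of all probes called then is not given here, so no excess is read from it. Both comparisons with WT share its 11 arrays.

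At 0 Gy neither Atm against WT nor Scid against WT gave a called probe by limma, in the respiratory chain or elsewhere (432 and 632 of all probes, 2.35% and 3.44%, had an unadjusted p under 0.05). Respiratory chain probes leaned lower in Atm controls, with a median of -0.40 beside -0.01 over all probes. Of 118 probes 108 lay below 0, beside 9427 of 18373, and 18 (15.3%) had an unadjusted p under 0.05. The score over all respiratory chain probes was 0.78 and 0.79 in WT 0 Gy replicates 3 and 5. It was -0.18 to 0.32 in the other WT controls, and the part of these 2 arrays in the lean was not tested. The lowest p was that of the Uqcrq probe (-1.37, SE 0.47, adjusted p = 1), in which the control at 0.53 takes part. For Scid against WT the median was -0.15, beside 0.09 over all probes. There 1 probe had an unadjusted p under 0.05, of Ndufa9, an accessory subunit (-1.20, SE 0.53, adjusted p = 0.902).

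Some cytochrome c oxidase subunits have a form made in heart and skeletal muscle, and these were read in blood drawn from the heart. Cox6a2, Cox7a1 and Cox8b are the muscle forms of Cox6a1, Cox7a2 and Cox8a. None was called in any comparison, and Cox8b was too dim to test (well above background on 9 arrays). Their levels differed widely between single mice. Cox8b stood at 4.32 in WT 0 Gy replicate 3, at 2.57 in Scid 0 Gy replicate 2, at 1.17 in WT 0 Gy replicate 5 and at 0.97 in Scid 3 Gy replicate 4, and its median over WT controls was -2.68. Cox6a2 was at 6.33 in the first of these mice (WT control median -0.10) and Cox7a1 at 5.68 (median 0.78).

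The same 4 mice had the highest scores of heart muscle markers, at 5.14, 3.27, 2.20 and 2.16, although only 7 of the 20 listed heart genes were measured well enough to be tested. Over the 32 arrays the heart score correlated with Cox6a2 (Pearson's r = 0.95, Spearman's rho = 0.87) and Cox7a1 (r = 0.83, rho = 0.65, permutation p = 0.00014 for rho), while for Cox8b, mostly at background, no correlation is given. Each r had a permutation p of 1e-05, the smallest that 100000 permutations can give, and an adjusted p of 2.5e-05 over 5 relations. Without the 2 arrays farthest from the median score, r was 0.88 and 0.64. Within scan day 1 (n = 15) it was 0.96 and 0.94, and within scan day 2 (n = 12) 0.97 and 0.72.

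For the common forms r was 0.21 for Cox6a1 (rho = 0.09, permutation p = 0.247), 0.26 for Cox7a2 (rho = 0.28, p = 0.148) and 0.20 for Cox8a (rho = 0.14, p = 0.269). The part of heart transcripts in the comparisons was not tested. Without the 3 arrays of highest heart score, 20 respiratory chain probes were called lower in WT, beside 7.44% of all probes. None was called in Scid, and the omission was chosen after seeing the data. The WT median of the respiratory chain probes was then -0.02, beside -0.07 over all probes. With all arrays it was -0.20 beside 0.00.

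**Figure D3:**
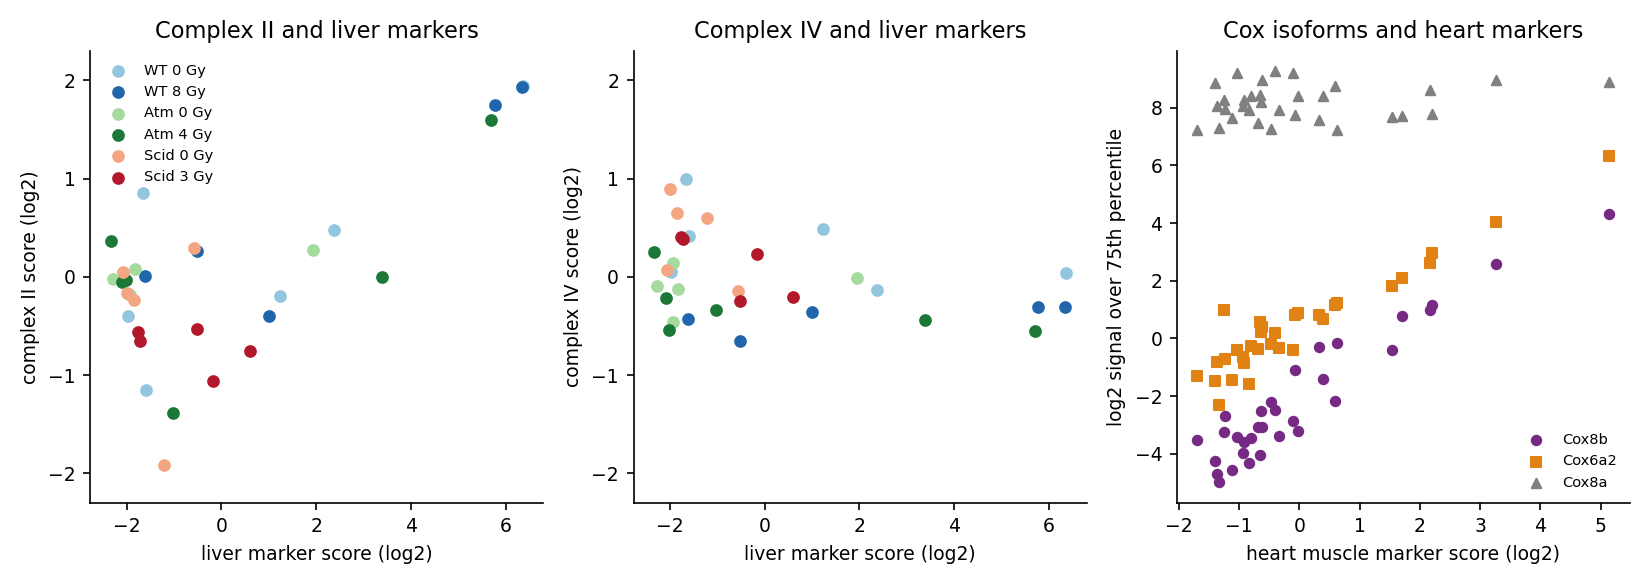
Scores of complex II (left) and complex IV (middle) against the liver marker score on each of the 32 arrays, all in log2, coloured by group, and the levels of Cox8b, Cox6a2 and Cox8a against the heart muscle marker score (right). The 4 arrays with liver scores above 5 have the highest complex II scores and complex IV scores of -0.55 to 0.04. Cox6a2 climbs with the heart score, Cox8a does not, and Cox8b is well above background on 9 arrays.

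Other genes with tissue forms were not called. Cox4i2, the lung form of subunit IV, was -0.87 in WT (SE 0.40, adjusted p = 0.206) and -0.03 in Scid, and Cox6b2 was -1.03 in WT (SE 0.60, adjusted p = 0.337) and 0.12 in Scid. Ndufa4 was at -0.11, 0.18 and 0.04 in WT, Atm and Scid. The genes with no probe past the detection filter were 5: Ndufa4l2 and Cox7b2, above background on 3 arrays each, Cox8c on 2, Cox8b on 9 and Atp5s on 12. A second probe of Atp5j was above background on 1 array.

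The WT values were also read within slides and scan days where both groups were present. Over all 118 probes the mean difference changed sign between batches: 0.22 on scan day 1 (1 irradiated and 3 control arrays), -0.65 on scan day 2 (3 and 2 arrays), and -0.22 and 0.29 on slides 4 and 5 (1 array of each group). The 22 called probes, chosen for their fall over these arrays, averaged -1.28, -1.45, -1.58 and -1.91. Less the mean difference of all tested probes, the 118 averaged 0.56, -0.64, 0.15 and 0.62, and the 22 averaged -0.94, -1.45, -1.20 and -1.58. The values of scan day 1 and of both slides rest on replicates 1 and 2 of the 8 Gy mice, whose arrays are bright in liver markers. Without the liver-bright arrays scan day 2 alone held both groups (2 irradiated arrays and 1 control), and there all 118 probes averaged -0.75 and the 22 called ones -2.12. Cox7b differed by -1.57 and -1.85 on the 2 days, and Atp5b by -1.97 and -1.40. On scan day 2 without the liver-bright arrays they differed by -2.63 and -2.14. With slide as a block in the fit, 7 of 118 probes were called lower, beside 3.47% of all probes, and with scan day 16, beside 4.82%.

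**Figure D4:**
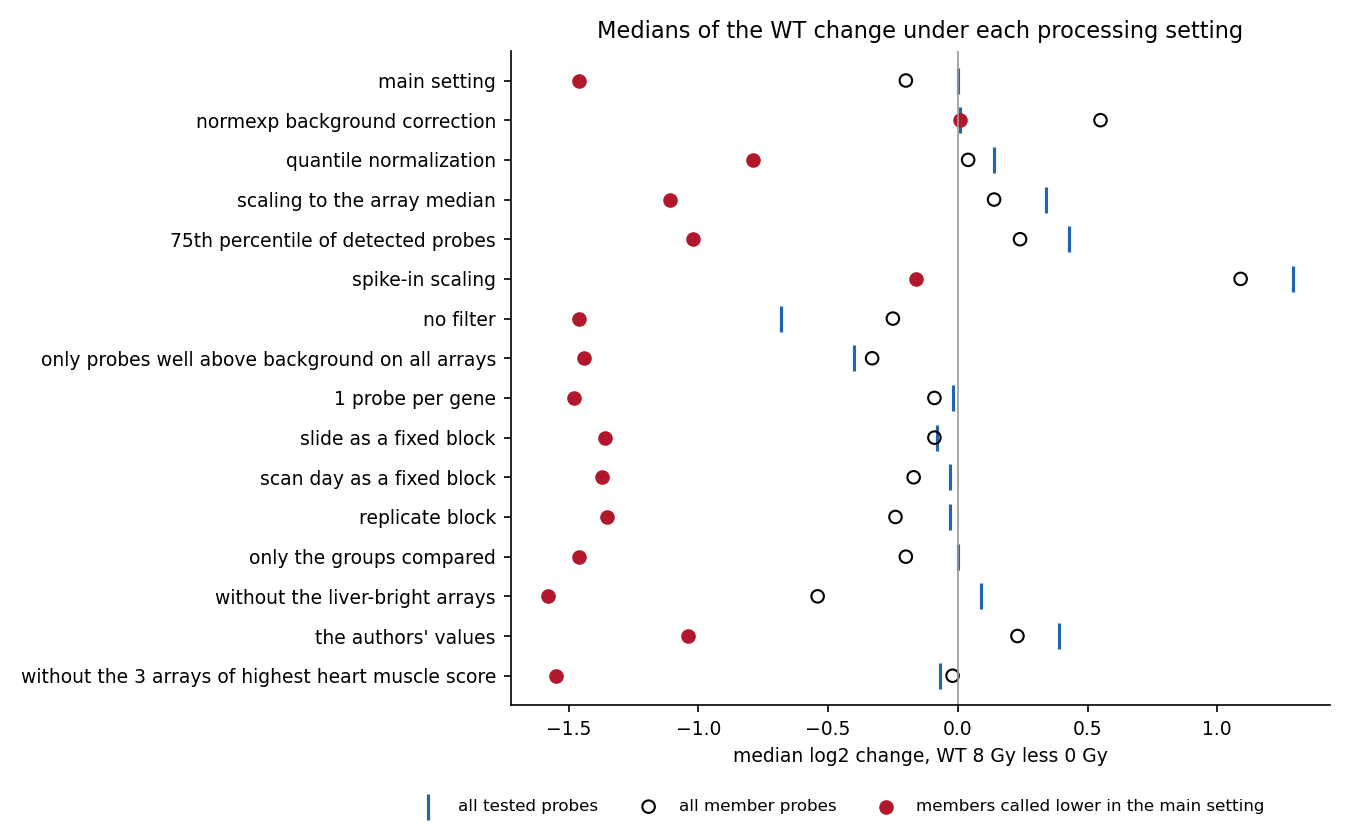
Median log2 change of WT 8 Gy less 0 Gy (horizontal axis) under each processing setting (rows), for all tested probes (blue bars), all respiratory chain probes (open circles) and those called lower in the main setting (red points). The red points, of probes chosen for their fall on these arrays, lie left of the open circles in each row. They reach 0 with normexp background correction and its offset of 50 (0.01) and come near it with spike-in scaling (-0.16).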

How the data were processed

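Each of the 32 samples is 1 array of globin-reduced blood RNA. The authors deposited scanner tables whose processed signal is an intensity per spot, background-subtracted by Agilent Feature Extraction (12.0.2 per the submitters' processing notes, 11.5.1.1 per the file headers) and not scaled between arrays. The series matrix, also deposited, gives log2 values for these arrays, of which 98.12 to 99.12% lay within 0.01 of the log2 scanner signal plus a constant per array, so scale and direction are known while the constant's origin is not. Its column medians were 5.51 to 6.44, and it was used as an alternative.

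Flagged and control spots were left out, spots of a probe averaged, and log2 signal set to the array's 75th percentile. A probe was tested if 4 or more arrays of any group had it well above background. The means of 6 groups were fitted with limma 3.58.1 in R 4.3.3 on all 32 arrays, in 8 comparisons, two-sided, and the fit was tested on simulated data. Replicates are individual mice per the series design. The number of arrays limits the precision. Replicate numbers did not pair mice: deviations of same-numbered mice correlated at -0.73 to 0.34. Positions are the headers' mm9, and promoters were read from RefSeq tables of GRCm38.p6. Member names and gene lists were chosen with earlier results of these data known. Named are called probes (up to 6 falls and 6 rises, or all where 12 or fewer), the extremes of each complex, tissue forms, genes with several probes and the Sdh genes. In the other lists up to 3 called genes are named. Other names were chosen after their values were seen. Some genes that this rule names are not reported here. Alternatives changed 1 choice at a time, except that normexp background correction also added an offset of 50 to the signal.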

Additional observations from a re-analysis of the deposited data

Results flagged for a closer look

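In 192 groups of 5 or 6 arrays, single mice stood apart from their group by Dixon's criterion 11 times, where chance marks about 1 group in 20. Scid 0 Gy replicate 5 did so on 4 measures of complex II: its score was -1.92 (next lowest -0.24), Sdha -1.90 (2.34), Sdhb 2.77 (3.71) and Sdhc -1.76 (0.51). The score is a mean that includes these probes, so the measures are not independent. This array had the lowest 75th percentile of all arrays, at a signal of 16.7. The Sdha and Sdhc probes were well above background on only 4 of the 5 Scid controls. Atm 4 Gy replicate 1 was high for Atp5l, at 7.92 (next 7.15), and for Atp5k, at 5.38 (4.82). Atm 0 Gy replicate 1 was low for Uqcrq, at 0.53 (3.03), and high for Sdhd, at 3.06 (2.57). Among Scid mice at 3 Gy, replicate 3 was low for Cox6c, at 6.01 (6.57), and replicate 4 was high for Cox8b, at 0.97 (-3.07). Scid 0 Gy replicate 4 was low for Cox5a, at 6.22 (7.31). Their causes were not tested.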

How the results depend on the processing

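In WT, 22 respiratory chain probes were called lower. The count was 0 with normexp background correction (beside 1.39% of all probes), 8 with quantile normalization (4.39%) and 8 with scaling to the array median (3.51%). It was 11 in the authors' values (4.55%) and 7 with slide as a block (3.47%). Where each array had to show a probe well above background, it was 27 of 93 (18.4%). With 1 probe per gene it was 11 (6.07%), where only 11 of the 22 probes were tested. With spike-in scaling 11 were called higher (as were 30.6% of all probes) and none lower (1.16%). Their median less that of all probes, -0.19, became 0.54 with normexp, 0.42 without a filter and -0.62 without the liver-bright arrays. Leaving out 1 array gave 15 to 26 calls, and the shares of all probes called on those omissions are not given here. With normexp the WT changes turned positive for Ndufa3 (0.35), Uqcrh (0.09 and 0.16), Atp5h (0.07), Atp5k (0.30, 0.28 and 0.24), Atp5l (0.02), Ndufb11 (0.38 and 0.37) and Cox7a2 (0.21), and with spike-in scaling for Ndufa3 (0.19), Atp5k (0.20, 0.21 and 0.13), Ndufb11 (0.30 and 0.31) and Cox7a2 (0.10). The replicate block gave 21 calls lower in WT (5.56% of all probes).

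The Scid count of 2 was 0 with normexp, quantile normalization, the percentile of detected probes, spike-in scaling, no filter, slide or scan day as a block, only the groups compared, or without the 3 arrays of highest heart score (chosen after seeing the data). It was 1 with 1 probe per gene, 4 in the authors' values and 5 with only probes above background on all arrays or without the liver-bright arrays, and 0 to 3 on leaving out 1 array. The shares of all probes called in Scid under these settings are not given here, so no excess is read from these counts. Spike-in scaling, which moved the median of all probes by 1.29 in WT and -1.62 in Atm, called 77 probes lower in Atm (68.3% of all probes) and turned Cox7a2l (-1.46) and Ndufa4 (-1.30).

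For Atm less WT, spike-in scaling called 109 of 118 lower, as it did 90.1% of all probes, leaving out 1 array called 0 to 2, and the median was -0.79 with normexp and -0.60 without a filter. For Scid less WT it was -0.96, -0.92 and 0.18 (without the liver-bright arrays), and for Scid less Atm -0.19 with normexp, with 13 called higher under spike-in scaling (32% of all probes). The causes were not tested.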
